A study of Mus musculus with 36 samples.

Results

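The miR-221 and miR-222 cluster is a pair of microRNA (miRNA) genes that lie side by side on the mouse X chromosome. Its members were the lines of the deposited count table named mmu-miR-221-3p, mmu-miR-221-5p, mmu-miR-222-3p and mmu-miR-222-5p, written below without the species prefix, 4 of the 1966 mature miRNA names in that table, each taken from the line with the highest total. The libraries hold small RNA of the liver or of the epididymal fat pad (eWAT, white fat beside the testis) of wild-type male C57BL/6 F1 mice aged 24 weeks, kept on chow to 6 weeks and on a specific diet for 18 weeks. Each tissue held the groups HF, HFLF and LF, with 6 libraries a group and 36 in all, whose diet tags are HFD, HFLFD and LFD. The treatment protocol gives LFD for every sample, so whether a group name is the diet of the mouse or of its father is not stated, and the groups are called by name only. Columns of the table carry letters, of which L was taken for liver, W for eWAT, H for HF, R for HFLF and C for LF. Beyond the sample titles nothing says that replicates are separate mice, and each p-value stands for the spread among libraries.

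A miRNA gene is transcribed into a long RNA from which a hairpin is released, and the hairpin is cut into a 5p and a 3p arm. One arm is usually loaded into an Argonaute protein, and its seed, bases 2 to 8, pairs with target mRNAs and lowers their output. miR-221 and miR-222 are made from a common primary transcript and share the seed of their 3p arms. Their known targets include Cdkn1b, an inhibitor of the cell cycle, and Kit, a receptor for stem cell factor. They are known from blood vessels, where endothelial and smooth muscle cells carry them, from fat, where they decline as preadipocytes mature, and from liver, where they are raised in carcinoma and in activated stellate cells.

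The mature sequences show why the pair is read as 1 seed family, and they are given here from RefSeq on GRCm38.p6 with the seed in capitals. Of the 4 members, 3 had a mature entry in the RefSeq table used.
miR-221-3p: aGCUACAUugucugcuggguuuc
miR-222-3p: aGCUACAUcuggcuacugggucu
miR-221-5p: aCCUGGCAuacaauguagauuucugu
miR-221-3p lies at chrX:19146307-19146329, miR-222-3p at chrX:19146901-19146923 and miR-221-5p at chrX:19146344-19146369, all on the minus strand. The 3p arms are both 23 bases long and are the same over the first 8 bases. Over their whole length 11 of 23 positions carry the same base without gaps. Such a count misses bases shared at a shift. Both tails hold the run cugggu at shifted positions, so the count does not measure how alike the tails are. The seed of the 3p arms was found in 3 mature miRNAs of the table. The third was miR-1928 of chromosome 1, which had 0 counts summed over all 36 libraries. The seed of miR-221-5p was found in no other entry.

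The hairpins are shown with the mature arms of the table in capitals, because the arm ratios below compare the pieces cut from them.
Mir221: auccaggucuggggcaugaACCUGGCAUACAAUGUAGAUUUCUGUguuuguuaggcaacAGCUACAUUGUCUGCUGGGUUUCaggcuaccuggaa
Mir222: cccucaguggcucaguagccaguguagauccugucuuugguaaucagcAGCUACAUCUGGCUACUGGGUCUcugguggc
Mir221 spans chrX:19146294-19146388, 95 bases, and Mir222 spans chrX:19146893-19146971, 79 bases. On the minus strand Mir222 comes first, and 504 bases lie between the hairpins. No other annotated gene overlaps them. The nearest is Gm14636, a processed transcript on the same strand at chrX:19156981-19167241, 10010 bases away.

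The libraries held 9066683 to 17714156 miRNA counts in eWAT and 7866583 to 18832842 in liver. The labelled tissues carried their defining miRNAs: the 4 hepatocyte markers made up 0.0848% to 0.509% of eWAT counts and 49.5% to 59.5% of liver counts, and the adipose and smooth muscle pair miR-143-3p and miR-145a-5p made up 13.0% to 23.0% in eWAT and 0.784% to 1.71% in liver. A group of 4 libraries stood apart. LF replicate 4 and HF replicate 6 of liver detected 316 and 368 miRNAs, against 540 to 633 in the other 16 liver libraries, and have no column in the log2 table the authors made for liver. LF replicates 1 and 4 of eWAT held 13545 and 15476 CPM, counts scaled to a common library size, of 7 summed epithelial markers, against 41.9 to 232 in the other 16 eWAT libraries. Their 4 germ cell and epididymis markers summed to 1754 and 186 CPM, against 10.9 to 160.3 CPM in the others. Results that rest on these libraries are given with and without them.

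In all libraries together the table held 635035 counts of miR-221-3p, 244154 of miR-222-3p, 15739 of miR-221-5p and 3432 of miR-222-5p. By mean CPM of library totals miR-221-3p ranked 55 and miR-222-3p ranked 73 of the 1314 miRNAs seen in eWAT. In liver they ranked 49 and 87 of 1056. The passenger arms lay lower, with miR-221-5p at rank 217 and miR-222-5p at rank 339 in eWAT, and at 170 and 274 in liver. Counting error was small for the 3p arms. The reach of a 95% Wilson interval in a single library, averaged over its upper and lower side, was at most 2.51% of the value for miR-221-3p. For miR-222-3p it was at most 7.48%. It reached 28.6% for miR-221-5p and 48.9% for miR-222-5p. Such intervals cover counting error only, since reads amplified by PCR without molecular identifiers are not independent molecules.

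The levels that follow are CPM scaled by TMM, a normalisation that takes most miRNAs as unchanged, over all 36 libraries. miR-221-3p averaged 1217 ± 302 CPM in eWAT HF, 957 ± 159 in eWAT HFLF and 1236 ± 414 in eWAT LF (SD, n = 6 each). Its lowest, median and highest libraries were 898, 1194 and 1761 CPM in eWAT HF, 708, 985 and 1147 in eWAT HFLF, and 835, 1083 and 1875 in eWAT LF. In liver it averaged 1404 ± 256 CPM in HF, 1419 ± 167 in HFLF and 1490.3 ± 225 in LF. miR-221-3p was thus even over the liver groups, and its ranges overlapped between every pair of groups of a tissue. The highest eWAT values were those of LF replicate 1, HF replicate 2 and LF replicate 4.

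miR-222-3p averaged 540.4 ± 151 CPM in eWAT HF, 413 ± 87.6 in eWAT HFLF and 679.8 ± 366 in eWAT LF (SD, n = 6 each). Its lowest, median and highest libraries were 411, 509 and 831 CPM in eWAT HF, 283, 428 and 539 in eWAT HFLF, and 429, 476 and 1342 in eWAT LF. In liver it averaged 303 ± 88.6 CPM in HF, 318 ± 14.3 in HFLF and 378 ± 194 in LF. The highest of eWAT LF were the libraries rich in epithelial markers, replicate 4 at 1342 CPM and replicate 1 at 883 CPM. The other 4 lay between 429 and 478 CPM. In liver the low ends were the libraries with few miRNAs, HF replicate 6 at 130 CPM and LF replicate 4 at 141 CPM, and the high end was LF replicate 1 at 732 CPM. The 6 liver HFLF libraries lay close together, between 294 and 332 CPM.

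The 5p arms are the strands usually discarded. miR-221-5p ranged from 15.99 to 45.6 CPM in eWAT and from 3.64 to 64.4 CPM in liver. miR-222-5p ranged from 2.96 to 9.98 CPM in eWAT and reached 14.7 CPM in liver. It had 0 counts in liver HF replicate 6, where a count of 0 allows up to 0.228 CPM. Within each tissue the order of the arms was the same in every group: miR-221-3p was highest, then miR-222-3p, miR-221-5p and miR-222-5p.

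**Figure D1:**
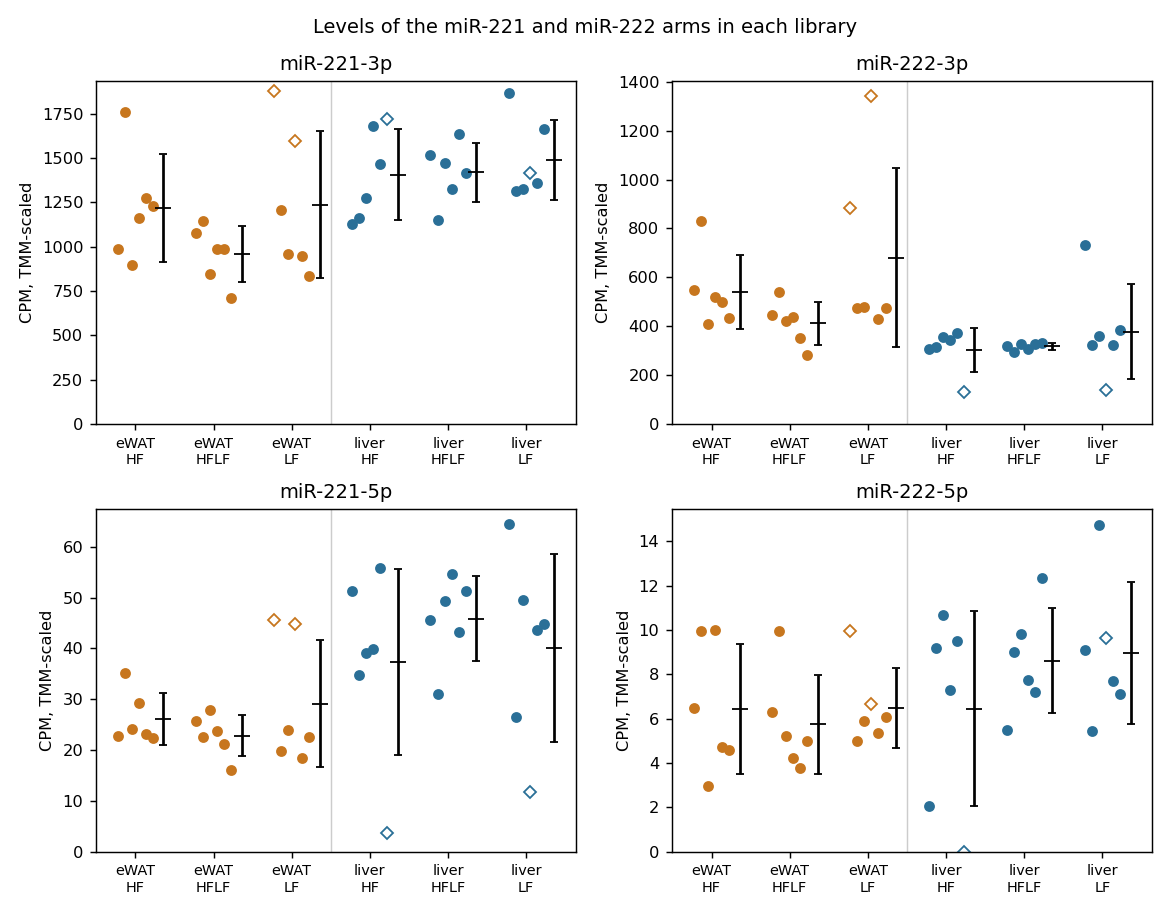
Level of each arm in every library, in TMM-scaled CPM, with eWAT on the left and liver on the right of each panel and the groups HF, HFLF and LF. Points are libraries, open diamonds are the 4 libraries that stood apart, and bars give the mean and SD of 6 libraries; miR-222-3p reached 1342 CPM in an open eWAT LF library and miR-221-3p stayed between 708 and 1875 CPM.

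The balance between the neighbours differed between the tissues. eWAT libraries held about 2 counts of miR-221-3p for each count of miR-222-3p, and liver libraries about 4. A ratio of counts within a library does not depend on how libraries are scaled, although it is a ratio of reads and not of molecules. The ratio averaged 2.28 ± 0.353 in eWAT HF, 2.35 ± 0.285 in eWAT HFLF and 1.97 ± 0.461 in eWAT LF (SD, n = 6 each). In liver it averaged 5.50 ± 3.81 in HF, 4.46 ± 0.389 in HFLF and 4.81 ± 2.65 in LF. The lowest, median and highest libraries were 1.80, 2.22 and 2.82 in eWAT HF, against 3.59, 3.81 and 13.2 in liver HF. They were 2.01, 2.33 and 2.81 in eWAT HFLF, against 3.92, 4.40 and 5.01 in liver HFLF. For LF they were 1.19, 2.07 and 2.55 in eWAT, against 2.55, 4.15 and 10.05 in liver. In each group every eWAT library lay below every liver library, although in LF the highest eWAT library, at 2.545, nearly touched the lowest liver library, at 2.548.

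The ratio was compared as a log2 difference, eWAT minus liver, by a 2-sided exact permutation test with p adjusted over 27 ratio comparisons. The difference was -1.09 ± 0.31 (SE) in HF, -0.93 ± 0.09 in HFLF and -1.19 ± 0.31 in LF. Each gave p = 0.00216, the smallest that 6 against 6 libraries can give, and an adjusted p of 0.0195 in the exact test. As a fold, the ratio was 2.13 times lower in eWAT in HF, 1.90 times lower in HFLF and 2.27 times lower in LF. The extreme values 13.2 and 10.05 belonged to liver HF replicate 6 and LF replicate 4, and the lowest, 1.19, to eWAT LF replicate 4. Without the 2 liver libraries the difference was -0.80 ± 0.12 in HF and -0.95 ± 0.21 in LF, both with an adjusted p of 0.0195 in the exact test. Without the 2 eWAT libraries that of LF was -1.05 ± 0.29 and missed the threshold, with an adjusted exact p of 0.0818. Without all 4 it was -0.81 ± 0.18, with an adjusted exact p of 0.0714. Fewer libraries raise the smallest p that an exact test can give. These lost calls therefore do not show that the difference rests on the libraries left out.

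**Figure D2:**
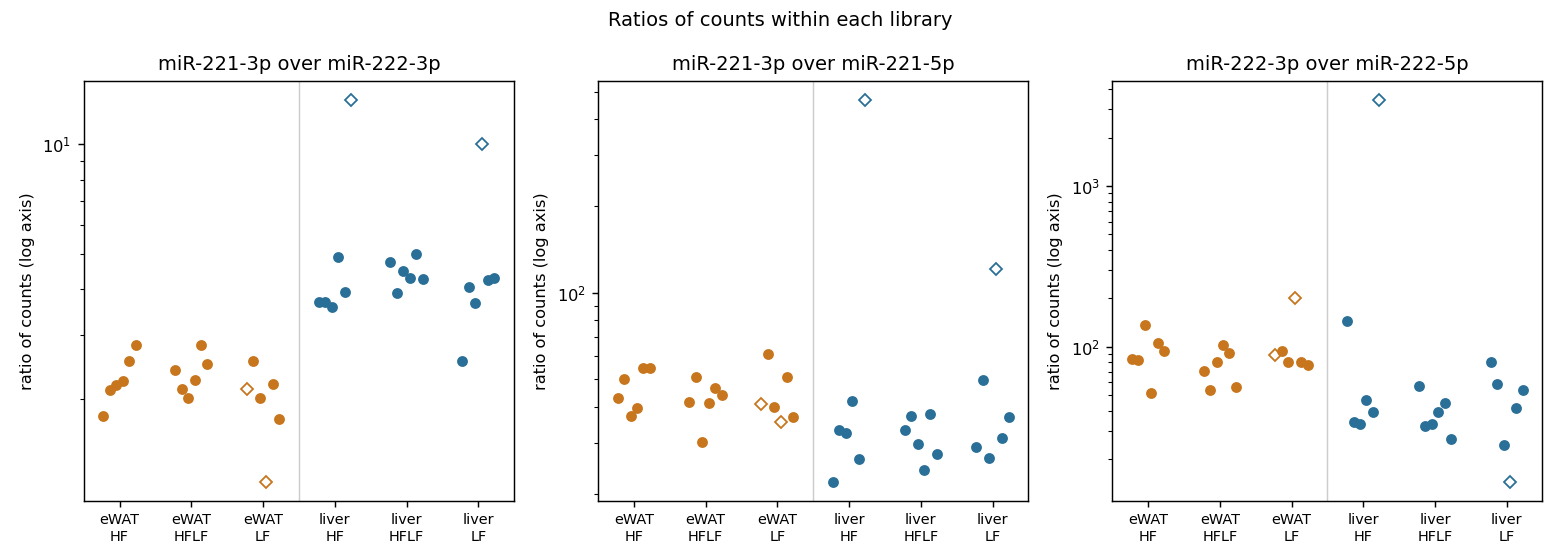
Ratio of counts within each library on log axes, for miR-221-3p over miR-222-3p and for the 3p over the 5p arm of each hairpin, with eWAT left and liver right. Points are libraries and open diamonds the 4 that stood apart; in the left panel the eWAT libraries lie between 1.19 and 2.82 and the liver libraries between 2.55 and 13.2.

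**Figure D3:**
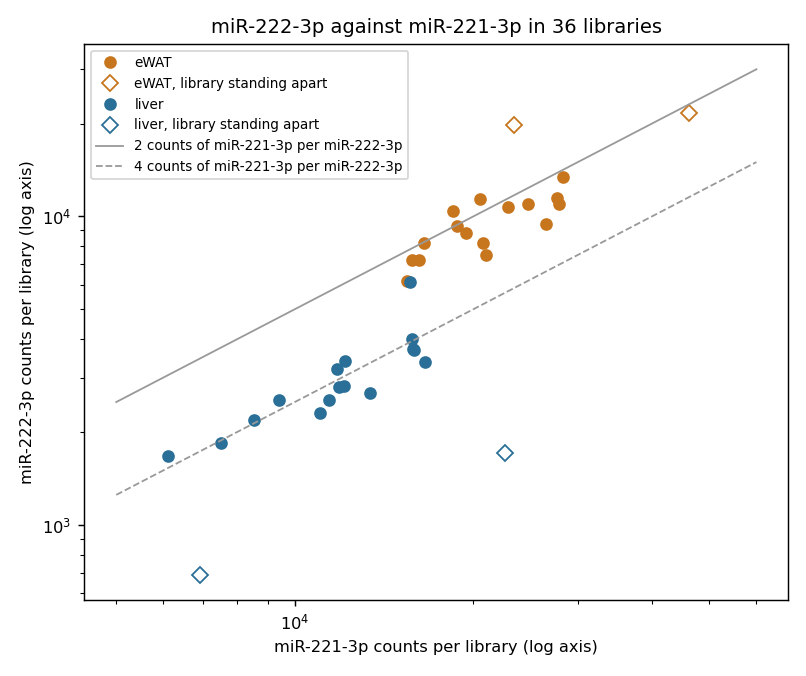
Counts of miR-222-3p against counts of miR-221-3p in the 36 libraries, both on log axes, with lines for 2 and 4 counts of miR-221-3p per count of miR-222-3p. eWAT libraries lie near the line for 2 and liver libraries near the line for 4, and open diamonds are the 4 libraries that stood apart.

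Other neighbouring miRNAs gave a scale for this shift. There were 29 pairs of miRNAs from hairpins within 10000 bases of each other that could be compared in both tissues, taking the mean log2 ratio over the 18 libraries of each. The size of the shift between eWAT and liver had a median of 0.38 over these pairs and was 1.07 for miR-221-3p over miR-222-3p, rank 4 of 29. The pairs with a larger shift were miR-503-5p with miR-322-3p at 1.44, miR-542-3p with miR-503-5p at 1.25 and miR-501-3p with miR-362-5p at 1.11. Without the 4 libraries that stood apart the shift was 0.84, rank 6 of 29, and the median 0.32. Some pairs share a miRNA, so the ranks are a description only.

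Between the diet groups of a tissue the ratio of miR-221-3p to miR-222-3p overlapped in every comparison. The largest log2 difference was 0.28 ± 0.17 (SE), for HFLF minus LF in eWAT, with an exact p of 0.104 and an adjusted p of 0.401. In liver the differences were 0.14 ± 0.40 for HF minus LF, 0.03 ± 0.27 for HFLF minus LF and -0.12 ± 0.30 for HFLF minus HF. None passed the threshold.

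The levels themselves were tested with edgeR's quasi-likelihood test in a fit of all 36 libraries, with Benjamini-Hochberg adjustment over 681 miRNAs and a threshold of 0.05. In bulk tissue fewer cells of a type and less RNA per cell cannot be told apart. In LF, eWAT minus liver, edgeR called 323 of 681 miRNAs, or 47.4%, and 1 of the 4 members. In HF it called 338, or 49.6%, and 1 of the 4 members, and in HFLF 331, or 48.6%, and 2 of the 4. With only 4 members, which are arms of neighbouring hairpins, these counts cannot be told from the shares of all miRNAs. miR-222-3p was higher in eWAT by 0.85 ± 0.28 on the log2 scale in LF, with an adjusted p of 0.0124 in edgeR, and by 0.83 ± 0.28 in HF, with an adjusted p of 0.0137. In HFLF its difference was 0.38 ± 0.28, with an adjusted p of 0.279 in edgeR, and it passed with DESeq2, at 0.62, with plain library totals, at 1.51, and without the 4 libraries that stood apart, at 0.39.

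miR-221-3p went the other way under this scaling. Its difference between eWAT and liver was -0.57 ± 0.18 in HFLF, with an adjusted p of 0.00781 in edgeR. In HF it was -0.21 ± 0.18 and in LF -0.27 ± 0.18, with adjusted p of 0.349 and 0.211 in edgeR. It passed at -0.46 in HF without liver HF replicate 1 and at -0.45 without replicate 3, and in LF at -0.46 without eWAT LF replicate 1 and at -0.43 without replicate 4. In HFLF the call was lost with DESeq2, at -0.33, and with totals without miR-122-5p, at -0.42, and with plain totals it turned and passed the threshold at 0.57. miR-221-5p was lower in eWAT in HFLF, at -1.005 ± 0.37, with an adjusted p of 0.0238 in edgeR, a call lost with no filter on low counts at -0.97, and had -0.51 ± 0.37 in HF and -0.46 ± 0.37 in LF. Without liver HF replicate 6 it passed in HF, at -0.75, and without the 2 liver libraries that stood apart it passed in LF too, at -0.71. miR-222-5p had -0.58 ± 0.54 in HFLF, -0.00 ± 0.54 in HF and -0.46 ± 0.54 in LF and passed in no group.

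The calls for miR-222-3p depended on the libraries that stood apart. In LF its difference was 0.32 without the 2 eWAT libraries, with an adjusted p of 0.361 in edgeR, and 0.15 without all 4. Of single libraries, leaving out eWAT LF replicate 4 ended the LF call, at 0.46. In HF it was 0.49 without the 2 liver libraries, with an adjusted p of 0.0848 in edgeR. The HF call was also lost, at 0.66 to 0.70 with an adjusted p of 0.0504 to 0.0676 in edgeR, on leaving out any 1 of liver HF replicates 1, 3 and 5 or eWAT HF replicates 2, 5 and 6. The defining epithelial markers summed to 13545 and 15476 CPM in those eWAT libraries, and the endothelial markers, both arms of miR-126a, to 7436 to 7617 CPM, against 11103 to 18704 CPM in the other eWAT libraries. In the liver pair the endothelial markers summed to 3031 to 3326 CPM, against 6087 to 9871 CPM in the other 16. The part of these cell types in the result was not tested.

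Scaling set the direction for the other arms. Plain library totals, of which hepatocyte markers took 49.5% to 59.5% in liver, moved the median eWAT minus liver difference of all miRNAs up on the log2 scale, by 1.28 in LF, by 1.18 in HF and by 1.11 in HFLF. With plain totals miR-221-3p was higher in eWAT, by 1.02 in LF, 0.97 in HF and 0.57 in HFLF, where TMM gave a negative value in each, and all 3 passed the threshold in edgeR. miR-222-3p kept its direction, with 2.12, 2.01 and 1.51. The share of edgeR calls that were higher in eWAT was 66.3% in LF, 64.5% in HF and 60.4% in HFLF with TMM, and 91.3%, 88.0% and 86.4% with plain totals. A change of scaling adds nearly the same amount to the difference of every miRNA. The distance of a member from the median of all miRNAs therefore hardly changes, by construction. miR-221-3p lay 0.87 below that median in LF with TMM and 0.85 below it with plain totals, at ranks 455 and 458 of 681 from high to low. miR-222-3p lay 0.25 above it with both, at ranks 305 and 302. Relative to the median difference over all libraries, then, miR-222-3p was near the middle of all miRNAs in LF and miR-221-3p in the lower part. The side on which miR-222-3p lay changed without the libraries that stood apart. With TMM and without eWAT LF replicates 1 and 4 it was at 0.32, below a median of 0.52. Without all 4 libraries it was at 0.15, below a median of 0.41.

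**Figure D4:**
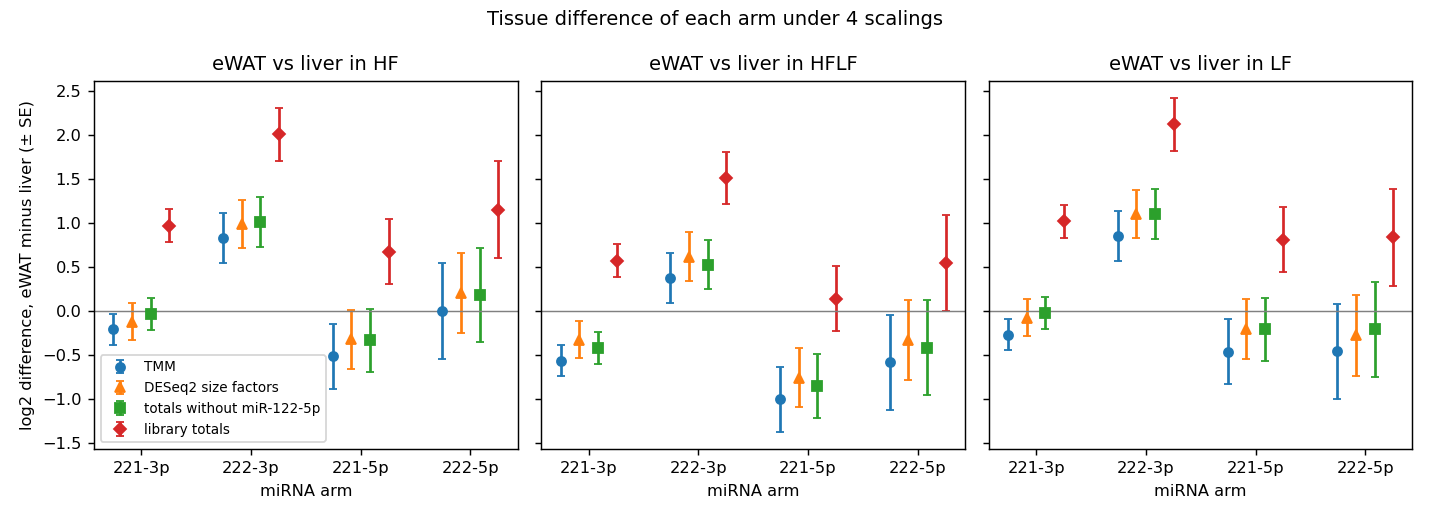
Difference between eWAT and liver of each arm on the log2 scale, eWAT minus liver, for HF, HFLF and LF under 4 scalings, with bars of 1 SE. miR-222-3p lies above 0 under each scaling, from 0.38 to 2.12, and miR-221-3p lies below 0 under TMM and above 0 with plain library totals.

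Whether HF or HFLF changed the members was asked within each tissue. No member passed the threshold in any of the 6 comparisons. In eWAT edgeR called 0 of 638 miRNAs in each, or 0.00%, for HF against LF, HFLF against LF and HFLF against HF. At an unadjusted p under 0.05 edgeR had 49 miRNAs (7.68%), 98 (15.4%) and 21 (3.29%) in that order, with 1 of the 4 members for HFLF against LF and none in the others. DESeq2 called 15, 31 and 0 miRNAs, with no member among them, and limma called 0 in each. In liver edgeR called 0 of 478 miRNAs in each comparison, or 0.00%, with 16 (3.35%), 14 (2.93%) and 5 (1.05%) at an unadjusted p under 0.05 and no member among them, and DESeq2 and limma called 0.

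The lowest p of a member was that of miR-222-3p in eWAT, HFLF against LF. Its difference was -0.73 ± 0.27 on the log2 scale, with an unadjusted p of 0.0154 and an adjusted p of 0.176 in edgeR. By levels it averaged 413 ± 87.6 CPM in HFLF and 679.8 ± 366 CPM in LF (SD, n = 6 each), with overlapping ranges. Without LF replicates 1 and 4 the LF mean was 463 ± 23.0 CPM (SD, n = 4) and the difference was -0.18 ± 0.18. miR-221-3p had -0.37 ± 0.20 in the same comparison, with an adjusted p of 0.396 in edgeR, and -0.06 without those libraries. miR-221-5p had -0.36 ± 0.23 and miR-222-5p -0.18 ± 0.30, and without those libraries 0.10 and 0.02.

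For HF against LF in eWAT the differences were -0.34 ± 0.27 for miR-222-3p, -0.03 ± 0.20 for miR-221-3p, -0.16 ± 0.23 for miR-221-5p and -0.01 ± 0.30 for miR-222-5p. Without LF replicates 1 and 4 all 4 had the opposite sign, at 0.22, 0.31, 0.31 and 0.21 in that order, and none passed the threshold. In the LF group the summed epithelial markers of these replicates exceeded those of every other eWAT library, and their part in the differences was not tested. For HFLF against HF, which uses no LF library in its contrast, the differences were -0.39 ± 0.27 for miR-222-3p and -0.34 ± 0.20 for miR-221-3p, with an adjusted p of 0.997 in edgeR for both.

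**Figure D5:**
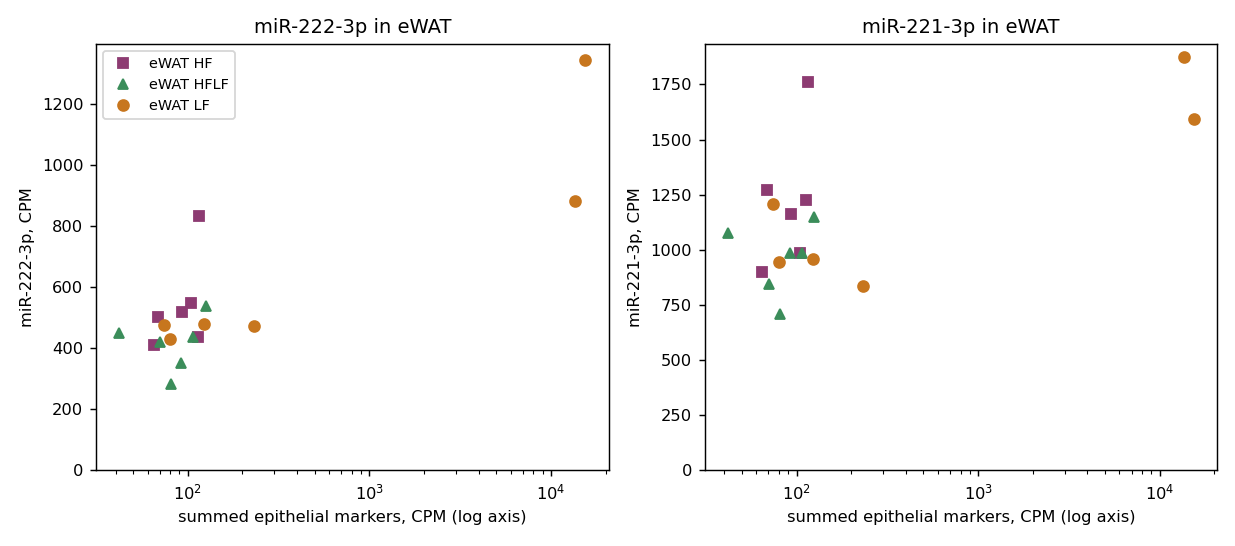
Level of miR-222-3p and of miR-221-3p in CPM against the summed CPM of 7 epithelial markers, on a log axis, in the 18 eWAT libraries of HF, HFLF and LF. LF replicates 1 and 4, at 13545 and 15476 CPM of markers, hold 883 and 1342 CPM of miR-222-3p, and the other 16 libraries, at 41.9 to 232 CPM of markers, hold 283 to 831 CPM.

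In liver HF against LF the differences were -0.26 ± 0.22 for miR-222-3p, -0.01 ± 0.17 for miR-221-3p, -0.07 ± 0.39 for miR-221-5p and -0.52 ± 0.64 for miR-222-5p, with an adjusted p of 0.998 in edgeR for each. For HFLF against LF they were -0.23 ± 0.22, -0.10 ± 0.17, 0.21 ± 0.39 and -0.12 ± 0.64 in the same order. For HFLF against HF they were 0.03 ± 0.22, -0.10 ± 0.17, 0.28 ± 0.39 and 0.40 ± 0.64. No arm passed the threshold, and the ranges of the groups overlapped for each arm.

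The diet difference was also compared between the tissues, eWAT minus liver, by an interaction term. edgeR called 17 of 681 miRNAs, or 2.50%, for HF against LF and 13, or 1.91%, for HFLF against LF, and no member in either. Leaving out eWAT LF replicate 4 lowered these counts to 4 and 5, and without eWAT LF replicates 1 and 4, with limma and with the replicate block they were 0 and 0. For HFLF against LF the interaction was -0.47 ± 0.40 for miR-222-3p and -0.30 ± 0.25 for miR-221-3p, both with an adjusted p of 0.755 in edgeR. Without eWAT LF replicates 1 and 4 both turned sign, to 0.074 and 0.023. For HF against LF it was -0.01 ± 0.40 and 0.06 ± 0.25, with an adjusted p of 1.00, and that of miR-222-3p was 0.53 without those libraries.

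The 3p arm made up most reads of each hairpin. It was 97.8% of the miR-221 reads and 98.9% of the miR-222 reads in eWAT, and 97.2% and 97.7% in liver. Other hairpins were alike: the median share of the dominant arm was 97.9% over 241 hairpins with at least 1000 counts in eWAT and 97.7% over 170 in liver. The ratio of miR-221-3p to miR-221-5p averaged 42.5 ± 6.90 in eWAT HFLF and 31.6 ± 5.38 in liver HFLF (SD, n = 6 each). The log2 difference was 0.43 ± 0.15, with an exact p of 0.0152 and an adjusted p of 0.0682, and passed at 0.52 without eWAT HFLF replicate 3. In HF and LF it was -0.06 ± 0.68 and 0.06 ± 0.35. The liver values there were spread by HF replicate 6, with 467 counts of the 3p arm per count of the 5p arm, and LF replicate 4, with 120.3. Without these 2 libraries the difference between eWAT and liver was 0.59 ± 0.19 in HF, with an adjusted exact p of 0.0487, and 0.36 ± 0.20 in LF, with an adjusted exact p of 0.234.

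For miR-222 the ratio of 3p to 5p was higher in eWAT in 2 of the 3 groups. It averaged 76.0 ± 19.4 in eWAT HFLF and 38.9 ± 10.9 in liver HFLF (SD, n = 6 each), a log2 difference of 0.97 ± 0.22. In LF it averaged 104 ± 47.7 in eWAT and 45.5 ± 23.9 in liver, a log2 difference of 1.30 ± 0.43. Both had an exact p of 0.00649 and an adjusted p of 0.0351, and in both the ranges of the tissues overlapped. Leaving out any 1 of liver HFLF replicates 2, 3, 4 and 6 ended the HFLF call, at 0.87 to 0.98, and any 1 of eWAT LF replicates 1 to 4 the LF call, at 1.10 to 1.36. In LF the call was lost without eWAT LF replicates 1 and 4, where the difference was 1.08 with an adjusted exact p of 0.214. In HF the difference was -0.17 ± 1.09, and 0.84 ± 0.44 without liver HF replicate 6, which had 1712 counts of the 3p arm and 0 of the 5p arm. Its ratio was thus at least 571, taking 3 counts as the floor.

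How far the neighbours moved together over the libraries of a tissue changed when few libraries were left out. Over all 18 eWAT libraries Pearson's r of the log2 CPM of miR-221-3p and miR-222-3p was 0.84, with a permutation p of 4.0e-05, adjusted 0.00024, and Spearman's rho was 0.71, with a permutation p of 0.00174, adjusted 0.00522. Without the 2 libraries farthest from the median of miR-221-3p, LF replicate 1 and HF replicate 2, r was 0.78. Over all 18 liver libraries r was -0.29, with a permutation p of 0.226, adjusted 0.226, and rho was 0.17, with a permutation p of 0.494, adjusted 0.710. The 2 farthest there were HF replicate 6 and LF replicate 4, the libraries with few miRNAs, and without them the sign of r turned. These r used TMM factors computed within the tissue, not the scaling over all 36 libraries of the levels above. In those levels liver LF replicate 4 was not far out, at 1415 CPM against a liver LF median of 1388 CPM. The r in liver therefore cannot be read from the levels printed above. Leaving out the 4 libraries that stood apart, r was 0.80 in the 16 eWAT libraries, with a permutation p of 0.00048, adjusted 0.00288. Spearman's rho was 0.59, with a permutation p of 0.0178, adjusted 0.0356. Without the 2 then farthest, HF replicate 2 and HFLF replicate 6, r was 0.40. Leaving out the extremes of miR-221-3p narrows its range and can by itself lower r. The drop therefore does not show that the relation rests on them. In the 16 liver libraries r was 0.56, with a permutation p of 0.0150, adjusted 0.0254, and rho was 0.67, with a permutation p of 0.00567, adjusted 0.0170. Without HFLF replicate 1 and LF replicate 1, r was 0.38. The p-values were adjusted over 6 relations among the arms, separately for all libraries and without the 4, and both values of a library share its scaling.

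The miRNAs whose levels were most like those of the members were named by the highest Pearson r of log2 CPM over the 18 libraries of a tissue, among 333 miRNAs of at least 10 CPM in eWAT and 219 in liver. In eWAT miR-222-3p was most like miR-5099 at 0.88, miR-200c-3p at 0.82, miR-200b-5p and miR-200a-3p at 0.81 and miR-182-5p at 0.78. The miR-200 family marks epithelial cells. Without LF replicates 1 and 4 these values were 0.65, 0.29, 0.42, 0.39 and 0.09 in the same order. miR-221-3p was most like miR-669c-5p at 0.77, miR-340-5p at 0.75, miR-181d-5p at 0.71, and miR-214-3p and miR-181c-5p at 0.67, which stood at 0.57, 0.54, 0.62, 0.38 and 0.48 without those libraries. The list of miR-222-3p thus held epithelial miRNAs that the list of miR-221-3p did not.

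In liver miR-221-3p was most like miR-34a-5p at 0.82, miR-190a-5p at 0.81, miR-107-3p and let-7g-5p at 0.78 and miR-22-5p at 0.76. Those of miR-222-3p were miR-10b-5p at 0.81, miR-1948-3p at 0.79, miR-92a-3p at 0.78, and miR-194-2-3p and miR-351-5p at 0.77. Without the 2 liver libraries that stood apart, miR-10b-5p, a miRNA encoded in a Hox cluster, kept an r of 0.76 with miR-222-3p, and the other 9 values were 0.31 to 0.59. In the same 16 libraries miR-10b-5p was also the most like miR-221-3p, at 0.67, against -0.13 over all 18. These r share the scaling of each library and are given as a description.

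Other miRNAs of blood vessels and of fat were set beside the cluster. Of 21 listed angiogenic and endothelial miRNAs, 20 were tested between eWAT and liver in LF, 6 were higher in eWAT and 6 lower, with a median difference of 0.47 on the log2 scale, against 0.60 over all 681 miRNAs, of which 214 were higher and 109 lower. The 4 with the highest level in eWAT, a choice that favours miRNAs higher there and took none of the 6 lower ones, were miR-10b-5p, with a difference of 9.96 ± 0.45, miR-10a-5p with 1.22 ± 0.21, miR-23a-3p with 1.81 ± 0.35 and miR-126a-3p, the endothelial miRNA, with 0.81 ± 0.20, each past the threshold in edgeR. The value of miR-126a-3p was close to the 0.85 of miR-222-3p, and the difference between them was not tested. That of miR-222-3p was 0.32 without eWAT LF replicates 1 and 4, and its neighbour miR-221-3p was at -0.27 over all libraries. Of 24 listed miRNAs of adipocytes or obese fat besides the members, 12 were higher in eWAT and 7 lower, with a median of 0.92. Among them miR-143-3p, a miRNA of smooth muscle and adipose tissue, had 2.36 ± 0.18, and miR-21a-5p, raised in many injured tissues, fell by 1.37 on the log2 scale, a call that was lost with plain totals at -0.09. miR-26a-5p and miR-30a-5p, at 0.33 ± 0.17 and -0.27 ± 0.13, did not pass, with adjusted p of 0.0973 and 0.0845 in edgeR, and with plain totals were at 1.62 and 1.03, both past it. Between the diet groups of a tissue no miRNA of either list passed the threshold in edgeR.

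The authors' deposited log2 tables hold both 3p arms in both tissues and miR-221-5p in liver, among 180 miRNAs in eWAT and 171 in liver. In the authors' deposited table miR-222-3p ran from 7.83 to 10.06 on the log2 scale in the 18 eWAT libraries and from 7.93 to 9.12 in the 16 liver libraries. miR-221-3p ran from 9.15 to 10.55 in eWAT and from 9.81 to 10.46 in liver. These values lay 0.25 to 0.40 below the log2 CPM computed here in liver and 0.29 to 0.33 below it in eWAT. The library size used here leaves out repeated lines of a miRNA in both tissues, and its part in the offset was not tested.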

How the data were processed

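Small RNA libraries were made from 1 ug of total RNA with the NEXTFLEX Small RNA-seq v3 kit, per the labels' protocols. Per the submitters' processing notes, cutadapt and Bowtie were the tools and GRCm38.p6 the build. Their versions and settings were not stated in these sources. The authors deposited raw read counts in 2118 lines for 1966 mature miRNAs, and log2 CPM for a part of them. The log2 tables deposited by the authors were used only for a comparison of levels.

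A mature miRNA with several lines was taken from that with the highest total. Counts were tested in R 4.3.3 with the robust quasi-likelihood F test of edgeR 4.0.16, TMM factors and filterByExpr (minimum count 10, total 15), with Benjamini-Hochberg adjusted p under 0.05. Diet groups were compared in a fit of the 18 libraries of 1 tissue, and tissues in a fit of all 36 with 6 groups. Differences are the group named first minus the group named second, with their SE. Ratios used counts plus 0.5 and a 2-sided exact permutation test. Correlations used a prior count of 2 and 100000 permutations, and those between the arms used TMM factors computed within each tissue. DESeq2 1.42.0 and limma 3.58.1 were alternatives, beside plain totals, totals without miR-122-5p, no filter, summed lines, a replicate block and left-out libraries. The fits were also run on simulated counts with the same starting means in all groups and changes drawn in both directions. Such counts do not test the scaling between tissues of unlike composition. Replicates of a group differed by more than sampling noise, with a chi-square per degree of freedom of 61.8 or more. The members, lists and tests were chosen with earlier results of these data known. Named miRNAs are the members, the 5 most like each 3p arm per tissue, and from each list up to 4 with the highest eWAT level.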

Additional observations from a re-analysis of the deposited data

Results flagged for a closer look

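A library was looked at again where it lay far from the other 5 of its group, by Dixon's test at its 95% critical value. The test used CPM for the levels and log2 values for the ratios, and another choice of scale flags other libraries. This held for 7 of 42 groups examined. Chance gives about 1 in 20 for a single group. The 42 share arms and libraries, so the 7 are not shown to exceed chance. In 4 of the 7 the library was liver HF replicate 6, which also detected few miRNAs. Its miR-222-3p was lowest at 130 CPM, its ratio of miR-221-3p to miR-222-3p highest at 13.2, and its ratio of miR-221-3p to miR-221-5p highest at 467. Its ratio of miR-222-3p to miR-222-5p was 3425 with 0.5 added to each count, a value set by 0 counts of the 5p arm. In eWAT HF replicate 2 was highest for miR-222-3p at 831 CPM, against 411 to 547 CPM in the others. In eWAT LF replicate 1 was highest for miR-222-5p at 9.96 CPM, against 4.98 to 6.67 CPM. In eWAT LF replicate 4 the ratio of miR-222-3p to miR-222-5p was highest at 200.2, against 77.6 to 94.7. LF replicates 1 and 4 are the eWAT libraries rich in epithelial markers. The part of these markers in the values was not tested.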

How the results depend on the processing

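Values are log2 differences unless said. The difference between eWAT and liver in the ratio of miR-221-3p to miR-222-3p kept its sign in each alternative tried. That was fixed in advance and is no test. In each group every eWAT library lay below every liver library, so leaving out libraries cannot turn the sign, and scaling does not enter the ratio. In LF it missed the threshold without eWAT LF 1 and LF 4 (-1.05) and without these and liver LF 4 and HF 6 (-0.81), in tests with fewer libraries. The levels depended on the scaling and on these libraries, and the cause was not tested.

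With plain library totals, eWAT minus liver was 1.02 in LF, 0.97 in HF and 0.57 in HFLF for miR-221-3p, and 0.81, 0.67 and 0.14 for miR-221-5p. It was 0.84, 1.15 and 0.55 for miR-222-5p, 1.51 for miR-222-3p in HFLF and 1.03 for miR-30a-5p in LF. The diet differences that turned were, for miR-221-3p in liver, 0.047 for HF against LF, 0.051 for HFLF against LF and 0.0040 for HFLF against HF. Others were 0.0027 for miR-221-5p in liver HF against LF, 0.091 for miR-222-5p in liver HFLF against LF and 0.017 for it in eWAT HF against LF. The interaction of miR-221-3p for HF was -0.048. Without miR-122-5p in the totals those of miR-221-3p in liver were 0.010 for HF and 0.0040 for HFLF against LF. Those of miR-222-5p were 0.011 in liver HFLF and 0.017 in eWAT HF against LF, and 0.18 for eWAT minus liver in HF. miR-221-3p was at -0.42 in HFLF, no longer called, and its interaction for HF at -0.011.

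By DESeq2, eWAT minus liver in HFLF was -0.33 for miR-221-3p, not called, and 0.62 for miR-222-3p, called. miR-222-5p was at 0.20 in HF and the interaction of miR-221-3p at -0.042. DESeq2 called 15 miRNAs for eWAT HF and 31 for eWAT HFLF against LF, and 26 and 21 for the interactions, where limma called 0 and 0. By limma miR-222-5p was at 0.74 in HF and the HF interaction of miR-222-3p at 0.0053. With no filter on low counts 6 miRNAs were called for the HF interaction. miR-221-3p was at 0.064 in liver HF against LF, miR-222-3p at -0.0063 in liver HFLF against HF and miR-222-5p at 0.056 for the tissues in HF.

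No pair of groups had a correlation over 0.1 in all 6 number pairs, and in none did every library correlate best with its own number. Mice shared between unlike tissues could miss that bar, so it does not show that the libraries are unpaired. The main tests took libraries with the same number as separate. With the replicate block, 0 miRNAs were called for each interaction. miR-222-5p for the tissues in HF was 0.058 and the HF interaction of miR-222-3p 0.024, and the block changed no other call of a member.

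Without eWAT LF 1 and LF 4, eWAT HF against LF was 0.31 for miR-221-3p and miR-221-5p, 0.22 for miR-222-3p and 0.21 for miR-222-5p. eWAT HFLF against LF was 0.10 for miR-221-5p and 0.024 for miR-222-5p. Between the tissues in LF miR-221-3p was at -0.57, now called, and miR-222-3p at 0.32, no longer called. miR-222-5p in HF was 0.018. The interactions were 0.53 for miR-222-3p in HF, and 0.023 for miR-221-3p and 0.074 for miR-222-3p in HFLF, with 0 and 0 miRNAs called. The 3p to 5p ratio of miR-222 between the tissues in LF was 1.08, not called. For HF against LF in eWAT the arm ratios were -0.010 for miR-221 and 0.10 for miR-222.

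Without liver LF 4 and HF 6, liver HFLF against HF was 0.094 for miR-221-3p and -0.085 for miR-222-3p, and the ratio between them 0.18. miR-222-3p between the tissues in HF was 0.49, no longer called. The arm ratios between the tissues in HF were 0.59 for miR-221, called, and 0.84 for miR-222. The arm ratio of miR-221 in liver was -0.15 for HF against LF and 0.032 for HFLF against HF. Without all 4 libraries, tissue differences in LF were -0.59 for miR-221-3p, called, and 0.15 for miR-222-3p, not called, with 0.39 for miR-222-3p in HFLF, called. Interactions were 0.54 for miR-222-3p in HF, 0.034 for miR-221-3p and 0.24 for miR-222-3p in HFLF, with 1 and 0 miRNAs called. The arm ratio of miR-222 was 0.79 in LF, not called. In HFLF, which holds none of these libraries, it stayed at 0.97 with the same exact p. Its adjusted exact p rose to 0.0584 only because other comparisons of the family changed.

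Leaving out 1 library at a time gave these lowest and highest values. In liver HF against LF they were -0.19 and 0.054 for miR-221-3p, and -0.25 and 0.17 for miR-221-5p. For HFLF against LF they were -0.22 and 0.063 for miR-222-5p. For HFLF against HF they were -0.17 and 0.081 for miR-221-3p, and -0.10 and 0.068 for miR-222-3p. In eWAT HF against LF they were -0.20 and 0.067 for miR-221-3p, and -0.22 and 0.11 for miR-222-5p. Between the tissues miR-221-3p ran from -0.46 to -0.16 in LF and from -0.46 to -0.13 in HF. miR-222-3p ran from 0.46 to 1.17 in LF, lost as a call without eWAT LF 4, and from 0.66 to 0.88 in HF, lost on leaving out any 1 of liver HF 1, 3 and 5 and eWAT HF 2, 5 and 6. miR-222-5p in HF ran from -0.35 to 0.13. The HF interactions ran from -0.13 to 0.12 for miR-221-3p and from -0.33 to 0.18 for miR-222-3p. Calls ran from 0 to 17 for eWAT HFLF against LF, 17 without LF 6, from 4 to 20 for the HF interaction and from 5 to 17 for the HFLF interaction. The ratio of miR-221-3p to miR-222-3p ran from -0.018 to 0.11 in eWAT HFLF against HF. In liver it ran from -0.15 to 0.38 for HF and from -0.13 to 0.27 for HFLF against LF, and from -0.20 to 0.18 for HFLF against HF. The arm ratio of miR-221 between the tissues ran from -0.29 to 0.59 in HF, from 0.35 to 0.52 in HFLF, called without eWAT HFLF 3, and from -0.070 to 0.36 in LF. By diet it ran from -0.11 to 0.047 in eWAT HFLF against LF, from -0.45 to 0.51 in liver HF against LF and from -0.85 to 0.032 in liver HFLF against HF. That of miR-222 between the tissues ran from -0.49 to 0.84 in HF, from 0.87 to 1.09 in HFLF and from 1.02 to 1.51 in LF, calls that were lost on leaving out any 1 of liver HFLF 2, 3, 4 and 6 and any 1 of eWAT LF 1 to 4. By diet it ran from -0.25 to 0.082 in eWAT HF against LF and from -0.35 to 0.15 in liver HFLF against LF.

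Depth limits miR-222-5p most, with 3432 counts over 36 libraries. With 6 libraries a group no exact p can go below 0.00216, so p-values adjusted over 27 ratio comparisons can hang on a single library. This floor rises when libraries are left out, and a ratio call can be lost for that reason alone.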
